A study of Mus musculus with 6 samples.

Results

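Interferon response genes were followed in endothelial cells sorted from the mouse retina after deletion of the clock gene Bmal1. The 9 genes Stat2, Irf7, Ifit1, Ifit2, Ifit3, Oasl2, Isg15, Ifitm3 and Bst2 were taken by name from a table of 55487 genes, and all 9 were among the 20459 genes that had at least 10 reads in at least 3 libraries. Control animals were tdTomato FL/+;Pdgf-icreER and the conditional knockouts, named Bmal1;CKO, were Bmal1 FL/FL;tdTomato FL/+;Pdgf-icreER, with 3 libraries of each genotype. Tamoxifen was given to all pups over the days P0.5 to P2.5, and retinas were taken at P7.5, at noon, so Cre activity, the tdTomato reporter and tamoxifen were common to both groups. Cre and GFP came from the Pdgf-icreER transgene, and cells positive for both GFP and tdTomato were sorted. Libraries are named here by their column in the deposited table, and columns 1 to 3 hold control and columns 4 to 6 hold Bmal1;CKO libraries.

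The highest levels of most of the 9 genes fell in a single Bmal1;CKO library. Of the 9 genes, 7 were highest in Bmal1;CKO library 4, which was the highest library for 15.9% of all genes tested, while Stat2 was nearly level across the libraries and Bst2 was highest in control library 1. At the other end, 5 of the 9 genes were lowest in control library 1, as were 36.4% of all genes tested. Ifit1, Ifit2, Irf7 and Oasl2 were barely detected in control library 1, with 1, 18, 15 and 2 reads. Libraries 1 and 4 were also those with the fewest genes that had a read. The 2 genotypes overlapped for each of the 9 genes, and none passed a false discovery rate of 0.05.

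Type I interferons bind the receptor chains Ifnar1 and Ifnar2 and, through the kinases Jak1 and Tyk2, lead to a complex holding Stat2 and Irf9 that binds the interferon-stimulated response element in the promoters of responding genes. Those genes code for proteins that sense, bind or restrict viral nucleic acids and particles, and many of them, including Stat2 and Irf7, feed back on the response itself. In the retina both endothelial cells and microglia can respond to interferon.

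The response element is shown first because its letters were not used when the genes were chosen by name. The genes are known as responding to interferon, and the response acts through this element. Its share among them is therefore not independent of the choice. Promoter windows of 300 bases, from 250 before to 50 after the annotated start, were taken from RefSeq on GRCm38.p6 for all 9 genes, with a second window for Ifit2. The core of the element was searched on both strands as GAAA, any 2 bases and GAAA again, and it was present in 6 of the 9 genes and in 3.99% of all genes with a window, or 3.44% of all 32851 windows. Each stretch below reads 5′ to 3′ along the gene, with the bases covered by core matches in capitals.
Ifit1, chr19:34640765-34640833, plus strand: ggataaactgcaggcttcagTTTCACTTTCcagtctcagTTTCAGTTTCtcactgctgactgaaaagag
Ifit3, chr19:34583353-34583436, plus strand: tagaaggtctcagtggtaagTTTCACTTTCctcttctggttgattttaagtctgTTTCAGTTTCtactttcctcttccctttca
Isg15, chr4:156200855-156200916, minus strand: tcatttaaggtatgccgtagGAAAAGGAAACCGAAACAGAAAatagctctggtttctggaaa
Stat2, chr10:128270256-128270305, plus strand: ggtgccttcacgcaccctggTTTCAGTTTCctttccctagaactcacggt
Ifitm3, chr7:141010716-141010742, minus strand: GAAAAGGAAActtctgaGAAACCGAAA
Bst2, chr8:71537567-71537622, minus strand: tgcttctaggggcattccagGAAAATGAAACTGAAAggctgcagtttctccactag

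The matches lay 104 and 85 bases before the start in Ifit1, 156 and 122 bases before it in Ifit3, and 222 bases before it in Stat2. Isg15 held 3 overlapping matches, the first of them 78 bases before the start, and Bst2 held 2 overlapping matches, the first 130 bases before the start. In Ifitm3 both matches followed the start, so 5 genes held a match when only the upstream 250 bases were searched. The letters of the core were not in the windows of Ifit2, Irf7 and Oasl2. The gamma-activated sequence, searched as TTC, any 3 bases and GAA, which reads the same on both strands, was in the windows of Ifit2, Ifitm3 and Bst2, and it overlapped core matches in Ifitm3 and Bst2, against 9.55% of all genes with a window. The E-box CACGTG, a motif that the Bmal1 and Clock proteins bind, was in 0 of the 9 genes and in 8.09% of all genes with a window. A match is a run of letters and was not tested for binding.

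**Figure D1:**
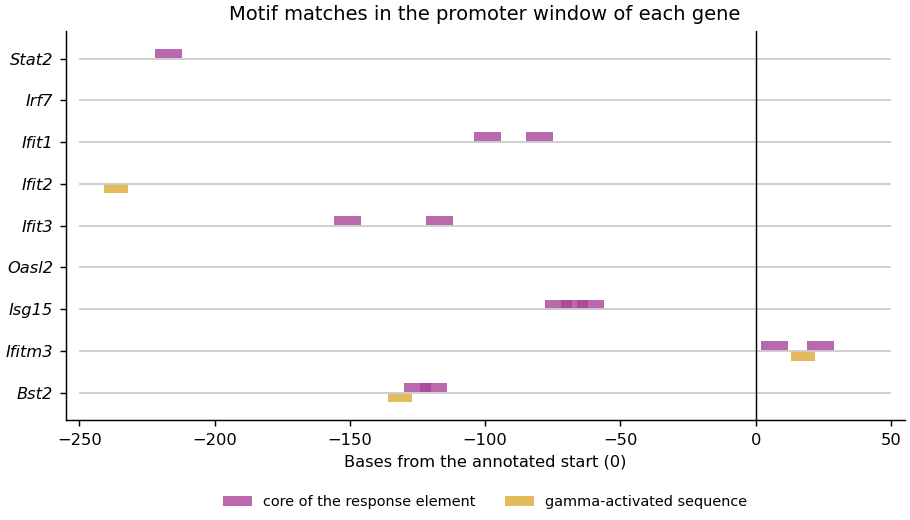
Positions of motif matches in the first RefSeq promoter window of each gene, in bases from the annotated start at 0 (x axis), with purple bars for the core of the interferon-stimulated response element and yellow bars for the gamma-activated sequence. Purple bars appear in 6 of the 9 genes, and those of Ifitm3 lie after the start.

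Values below are normalized counts, the reads of a gene divided by the size factor of its library. Between 71145068 reads, in Bmal1;CKO library 4, and 104017800 reads, in control library 3, fell on genes per library. Genes with a read numbered 21598, 23889 and 26420 in control libraries 1, 2 and 3. They numbered 22142, 27904 and 26793 in Bmal1;CKO libraries 4, 5 and 6. The part of this difference in the levels of the 9 genes was not tested. The Arntl gene, which codes for Bmal1, had 1700, 3489 and 2928 normalized counts in control libraries 1 to 3 and 1779, 2747 and 2415 in Bmal1;CKO libraries 4 to 6. The groups overlapped for Arntl. A floxed allele can lose only a piece of the gene, and the table sums all of it. Single exons were not counted, so these counts do not check the genotype labels. By droplet digital PCR the paper reports significantly less Bmal1 transcript in sorted endothelial cells of the mutant. The part of RNA from microglia in the Arntl counts was not tested. Of 13 endothelial markers 12 had at least 10 reads in every library, as did all 10 microglial markers. In control libraries 1, 2 and 3 the median microglial marker was 11.4, 5.65 and 9.23 times the median endothelial marker. In Bmal1;CKO libraries 4, 5 and 6 this ratio was 21.9, 24.5 and 10.1. Transcripts of the 9 genes from endothelial cells and from microglia cannot be told apart in these libraries.

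Stat2 (ENSMUSG00000040033, chr10:128270559-128292849, GRCm38), a signal transducer that is activated after interferon binding, had 769, 1165 and 1170 normalized counts in control libraries 1, 2 and 3 and 1058, 1266 and 1191 in Bmal1;CKO libraries 4, 5 and 6. It was the steadiest of the 9 genes, with a highest library 1.65 times the lowest, and its lowest value was again in control library 1. The difference between genotypes was 0.20 ± 0.34 (SE) on the log2(normalized count + 1) scale, and this became -0.27 when the libraries were scaled on microglial markers.

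Irf7 (ENSMUSG00000025498, chr7:141262706-141266481), the interferon regulatory factor that amplifies interferon production, had 18.5, 369 and 564 normalized counts in control libraries 1, 2 and 3. Bmal1;CKO libraries 4, 5 and 6 had 5380, 1061 and 515. Library 4 stood 5.07 times above the next Bmal1;CKO library, and library 6 lay below control library 3, so the groups overlapped. The log2 fold change was 3.17 ± 1.39 (SE), with an adjusted p of 0.883 in limma-trend and a two-sided exact permutation p of 0.2. Irf7 had the smallest limma-trend p of the 9 genes. Its log2 fold change was 2.21 once Bmal1;CKO library 4 was left out, and 1.65 once control library 1 was. DESeq2 gave it an adjusted p of 0.421. An exon of Phrf1 on the opposite strand overlaps Irf7 by 45 bases, and the use of strand in counting is not given in the sources used here.

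The IFIT proteins bind viral RNA and block its translation, and Ifit1, Ifit2 and Ifit3 lie near each other on chromosome 19. Ifit1 (ENSMUSG00000034459, chr19:34640871-34650009) had 1.23, 339 and 57.2 normalized counts in control libraries 1, 2 and 3 and 972, 342 and 152 in Bmal1;CKO libraries 4, 5 and 6. Control library 1 held a single read of it, while control library 2 nearly equalled Bmal1;CKO library 5. Its log2 fold change of 3.39 ± 1.77 (SE) was the largest of the 9 in limma-trend, with an adjusted p of 0.883, and it was 1.40 without control library 1. In edgeR with TMM it was 1.87, and Irf7 at 2.83 was the largest there. On the linear scale the group means were 132 ± 181 and 488 ± 429 (SD, n = 3 each).

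Ifit2 (ENSMUSG00000045932, chr19:34550694-34576419) had 22.1, 418 and 900 normalized counts in the control libraries and 1454, 785 and 258 in the Bmal1;CKO libraries, in the same order. Control library 3 exceeded Bmal1;CKO libraries 5 and 6. The log2 fold change was 1.69 ± 1.36 (SE), 0.12 when control library 1 was left out, and 0.87 in edgeR with TMM. Ifit3 (ENSMUSG00000074896, chr19:34583531-34588731), which binds and stabilizes IFIT1 in human cells, had 551, 775 and 449 normalized counts in the control libraries. It had 5696 in Bmal1;CKO library 4 but 412 and 284 in libraries 5 and 6, below every control library. Its log2 fold change was 0.60 ± 1.06 (SE) with library 4 and -0.75 without it, and 1.82 in edgeR with TMM and all libraries. Of the 50-base words in Ifit3 exons, 51.2% also occur in Ifit3b, so reads of the 2 genes may have been split or dropped in counting, and Ifit3b itself had 1121 normalized counts in library 4 against 33.8 to 556 in the other libraries. Ifit1 shared 7.13% of its words with other genes and Ifit2 shared 0%.

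Oasl2 (ENSMUSG00000029561, chr5:114896936-114912234), a member of the 2′-5′ oligoadenylate synthetase family, had 2.46, 857 and 1513 normalized counts in control libraries 1, 2 and 3. The Bmal1;CKO libraries 4, 5 and 6 had 3107, 884 and 629. Apart from library 4 at the top and control library 1 at the bottom, the remaining control and Bmal1;CKO libraries were interleaved. The log2 fold change of 2.86 ± 2.13 (SE) became 0.08 when control library 1 was dropped and 2.18 when library 4 was. It was 0.93 in edgeR with TMM and 0.96 in DESeq2, and the mean of the Bmal1;CKO libraries was 1.95 times that of control.

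Isg15 (ENSMUSG00000035692, chr4:156199455-156200796), a ubiquitin-like protein that is attached to other proteins during the response, had 2885, 1333 and 532 normalized counts in control libraries 1, 2 and 3 and 6984, 1208 and 378 in Bmal1;CKO libraries 4, 5 and 6. In contrast to Irf7, Ifit1, Ifit2 and Oasl2, it was high in control library 1, which was exceeded by library 4 alone. The log2 fold change was 0.21 ± 1.06 (SE), and the sign turned to -0.91 without library 4, to -0.41 without control library 3 and to -0.26 under microglial marker scaling. In edgeR with TMM it was 0.83.

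Ifitm3 (ENSMUSG00000025492, chr7:141009586-141010770) and Bst2 (ENSMUSG00000046718, chr8:71534255-71537456) code for membrane proteins that hinder the entry and the release of enveloped viruses. They were the most abundant of the 9 genes per length, with a median over the 6 libraries of 20637 and 8253 normalized counts per kilobase of exon, followed by Isg15 at 1681, and the medians of the other 6 genes were between 92.3 and 287. Ifitm3 exceeded Bst2 per kilobase in each of the libraries. Ifitm3 had 24616, 17817 and 10167 normalized counts in control libraries 1, 2 and 3 and 27346, 9026 and 9299 in Bmal1;CKO libraries 4, 5 and 6. Bst2 was high in the same libraries, with 16105, 8818 and 4793 in the control libraries and 14887, 6086 and 4794 in the Bmal1;CKO libraries. For both genes, libraries 1 and 4 were the highest and the groups overlapped. The log2 fold changes were -0.32 ± 0.51 (SE) for Ifitm3 and -0.22 ± 0.55 (SE) for Bst2, and they became 0.26 and 0.37 when the libraries were scaled on endothelial markers. Ifitm3 shared 10.0% of its 50-base words with other genes.

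Isg15, Ifitm3 and Bst2 were also the shortest of the 9 genes, with 756, 678 and 903 bases of exon. Among abundant genes, those with a mean of at least 1000 normalized counts, the 743 with up to 1 kb of exon had median centred log2 values of 0.57, 0.31 and -0.45 in control libraries 1, 2 and 3 and of 0.22, -0.20 and -0.44 in Bmal1;CKO libraries 4, 5 and 6. Of these short genes 55.5% were highest in control library 1 and 18.6% in Bmal1;CKO library 4. Among abundant genes with 1 to 2 kb and 2 to 4 kb of exon, 29.0% and 22.5% were highest in Bmal1;CKO library 4. With 4 to 8 kb and over 8 kb these shares were 11.8% and 5.87%. This comparison by length was chosen after the values were seen, and the part of length in the levels of the 9 genes was not tested.

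**Figure D2:**
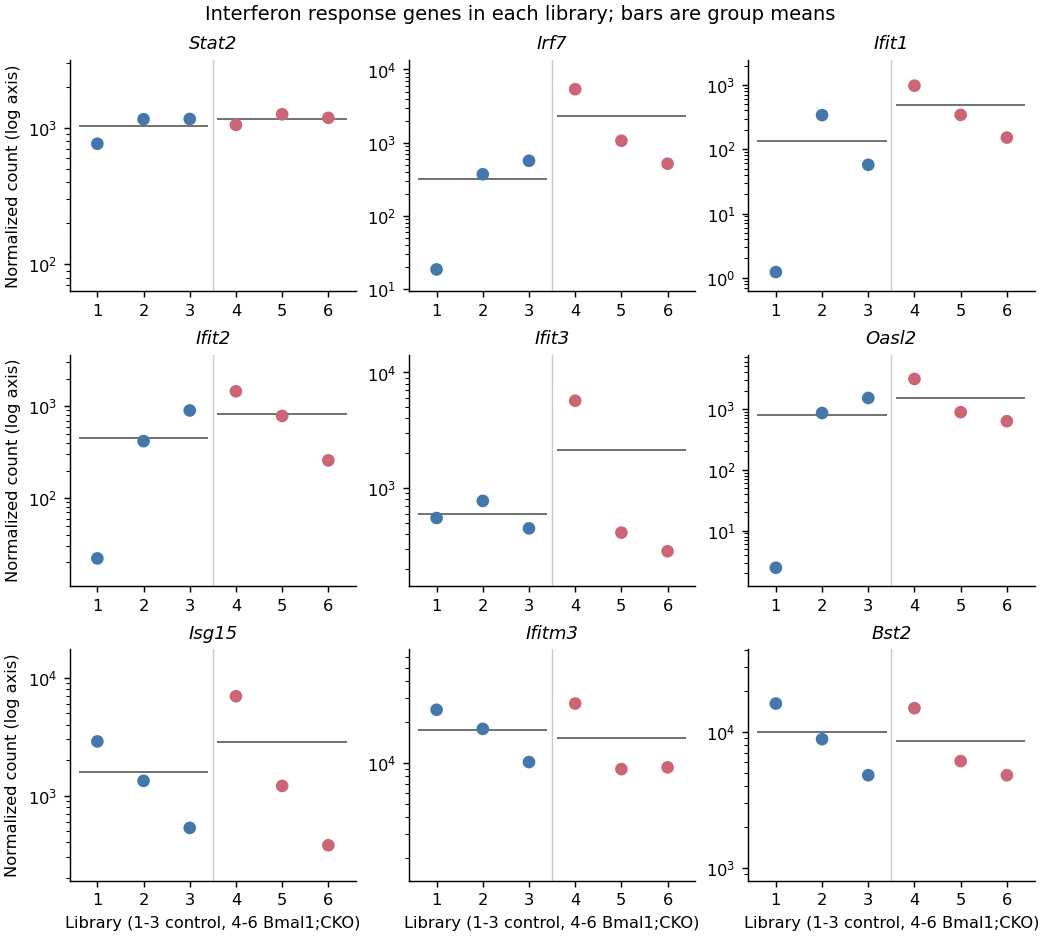
Normalized counts of each gene (log y axis) in control libraries 1 to 3 (blue) and Bmal1;CKO libraries 4 to 6 (red), with grey lines at the group means. Library 4 is the highest point in 7 of the 9 panels, and library 1 is the lowest in 5 of them, as it is for 36.4% of all genes tested.

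Set side by side, 0 of the 9 genes had an unadjusted p under 0.05 in limma-trend, against 4.92% of all genes tested. The count past a false discovery rate of 0.05 was 0 of 9 and 0.0% of all genes. DESeq2 called 0.327% of all genes and none of the 8 that it gave a p, with Irf7 alone at an unadjusted p under 0.05, against 5.94% of all genes, and it gave no p for Ifit3. At that level edgeR found Irf7 with the size factors and 0 of the 9 with TMM, beside 3.87% and 3.8% of all genes, and limma-voom found 0 of the 9, beside 4.87%. The adjusted p of the 9 genes lay between 0.368 and 1 over all alternatives tried. The genotypes failed to overlap for 0 of the 9 genes and for 11.2% of all genes, and the two-sided exact permutation p was between 0.2 and 1, where 3 libraries against 3 cannot give less than 0.1. In limma-trend the estimate was above 0 for 7 of the 9 genes, with Isg15 and Stat2 turning below 0 under microglial marker scaling, and for 56.6% of all genes. Their median log2 fold change was 0.60, beside 0.11 for all genes tested, and in edgeR with TMM the same medians were 0.87 and -0.03. Limma-trend averages the logarithms of the libraries and the count models compare mean levels, and the estimates of Ifit1, Ifit2 and Oasl2 were lower, and those of Ifit3 and Isg15 higher, in edgeR and DESeq2 than in limma-trend. The methods name animals of each genotype as the source and speak of biological replicates, while the labels do not tie a library to an animal, so these p-values measure the spread between libraries. Fewer cells of a type cannot be told apart from less RNA per cell in such bulk samples.

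Single libraries weighed heavily on these estimates. Without Bmal1;CKO library 4, 5 genes were above 0 and 4 below, and the median was 0.27 in place of 0.60. The same library stood 12.7 times above the median of the other 5 libraries for Ifit3, 10.4 times for Irf7, 6.41 times for Ifit1 and 5.78 times for Isg15. For Ifit2, Oasl2, Ifitm3 and Bst2 the ratio was between 2.45 and 3.63, and for Stat2 it was 0.904. Control library 1 weighed on the other end, and the estimates of Ifit2 and Oasl2 were 0.12 and 0.08 without it.

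**Figure D3:**
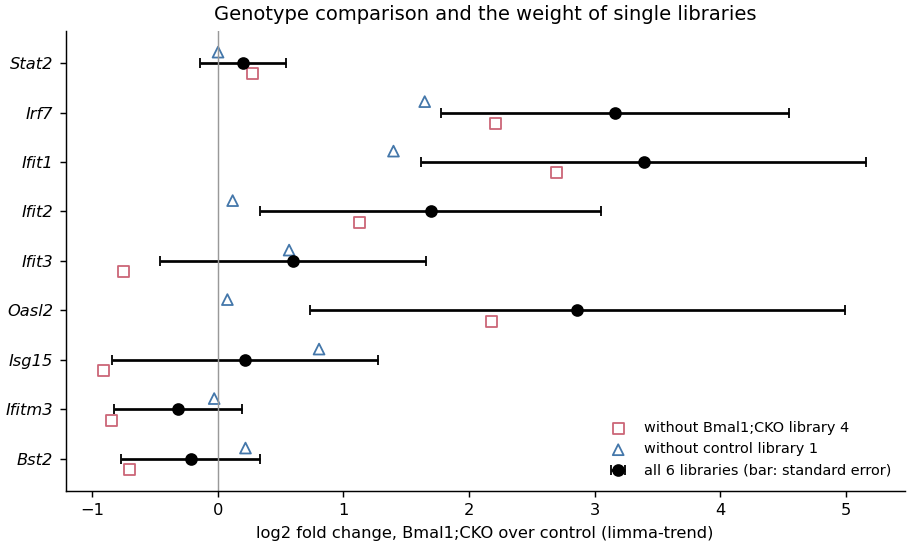
Log2 fold changes of Bmal1;CKO over control (x axis, limma-trend) for the 9 genes with all 6 libraries (black, bars are standard errors), without Bmal1;CKO library 4 (red squares) and without control library 1 (blue triangles). Ifit3 moves from 0.60 to -0.75 and Isg15 from 0.21 to -0.91 without library 4, and Oasl2 moves from 2.86 to 0.08 without library 1. The signs of Isg15, Stat2, Ifitm3 and Bst2 also turn under marker scaling.

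The remaining genes of the pathway were described by 9 lists with 130 genes, of which 99 were tested. Their estimates were above 0 for 70 genes and below 0 for 29, with a median of 0.37 that became -0.10 under microglial marker scaling, where the median of all genes was -0.36. Of the 99 genes, 7 had an unadjusted p under 0.05, namely Irf9, Ticam1, Dhx58, Uba7, Gbp4, Gbp9 and Igtp, all of them higher in Bmal1;CKO, where 3.17% of all genes did so, and 0 passed a false discovery rate of 0.05 in limma-trend. Groups did not overlap for 10 genes that were higher and 1 that was lower, with 6.62% and 4.54% as the shares among all genes. The median log2 fold change was 0.07 for 5 receptor genes, 0.20 for 8 kinases and transcription factors, 0.42 for 16 sensors and adaptors, 0.63 for 4 genes of Isg15 conjugation and removal and 0.28 for 6 negative regulators. It was 0.33 for 35 other interferon-stimulated genes, of which 24 were above 0 and 11 below, and 0.97 for 12 GTPases, of which 9 were above 0 and 3 below. The GTPase median was 0.30 in edgeR with TMM, 0.32 in DESeq2 and 0.30 without Bmal1;CKO library 4.

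Upstream of the response, 5 of the 21 interferon genes had any read and none had enough reads to be tested. Ifnb1 was at 0 in every library but Bmal1;CKO library 5, which had 62.2 normalized counts. Whether interferon reached the cells of any library was not tested. The receptor chains differed between genotypes by less than the SD within the control group, with group means of 4987 ± 2056 and 4615 ± 1332 for Ifnar1 and 8050 ± 4077 and 7466 ± 860 for Ifnar2 (SD, n = 3 each).

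Irf9, which joins Stat2 in the complex, had 723, 1092 and 1657 normalized counts in the control libraries and 2879, 2532 and 1715 in the Bmal1;CKO libraries. All of its Bmal1;CKO libraries exceeded all control libraries, and the log2 fold change was 1.08 ± 0.40 (SE), with an adjusted p of 0.883 in limma-trend. Among 16 sensors and adaptors, Ticam1, an adaptor of Toll-like receptor 3, and Dhx58, a cytoplasmic RNA sensor, were also separated, as was the kinase gene Ikbke, named after its values were seen, with 452, 56.6 and 372 normalized counts in control and 602, 501 and 658 in Bmal1;CKO. Ticam1 had 56.6, 229 and 704 normalized counts in control and 1079, 919 and 1398 in Bmal1;CKO, with an adjusted p of 0.883 in limma-trend. Dhx58 had 9.84, 279 and 722 normalized counts in control and 1748, 1222 and 973 in Bmal1;CKO, with an adjusted p of 0.883 in limma-trend. Like Irf7 it was barely detected in control library 1.

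In the ISG15 pathway all 4 tested genes had estimates above 0. Uba7, the enzyme that activates Isg15 for conjugation, had 976, 1228 and 1273 normalized counts in the control libraries and 1720, 2209 and 2225 in the Bmal1;CKO libraries, without overlap, and limma-trend gave an adjusted p of 0.883. Usp18, which removes Isg15 from proteins, followed Isg15 instead, with 1066 in library 4 against 70.8 to 274 in the other libraries. Its log2 fold change of 0.72 became -0.28 without library 4 and was 1.37 in DESeq2.

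Genes that interferon induces outside the 9 were pooled from 4 of the lists (Isg15 conjugation, relatives of the 9 genes, other interferon-stimulated genes and GTPases), a pooling chosen after their values were seen. Of 64 tested, 34 (53.1%) were highest in Bmal1;CKO library 4 and 0 were lowest there, where 15.3% of all genes were lowest. Their median log2 fold change was 0.52 with all libraries and 0.11 without library 4. Estimates of the 13 tested relatives of the IFIT, IFITM and OAS genes were above 0 for 9 and below 0 for 4 in limma-trend. Their median was 1.75, with 0 of them at an unadjusted p under 0.05. This median was 0.73 in edgeR with TMM, 0.74 in DESeq2 and 0.32 without library 4, and it turned to -0.49 when each library had to hold at least 10 reads of a gene. Oasl1 went against Oasl2, with 984 normalized counts in control library 1, 0 in control library 3 and 861 in Bmal1;CKO library 4. Ifitm2, a paralog of Ifitm3, had 2403, 1069 and 659 normalized counts in control and 1070, 507 and 795 in Bmal1;CKO. Its log2 fold change was -0.66 ± 0.55 (SE), and -1.08 to -0.15 with single libraries left out.

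**Figure D4:**
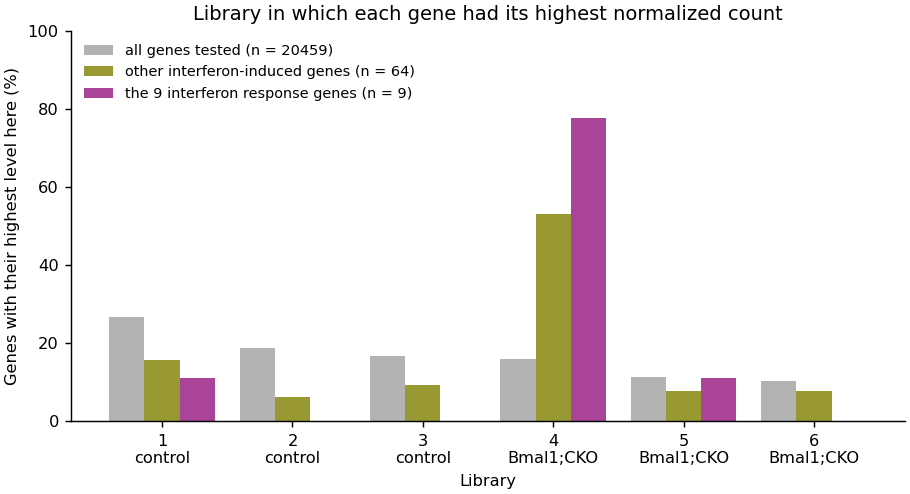
Share of genes, in percent (y axis), that had their highest normalized count in each library (x axis), for all 20459 genes tested (grey), 64 other interferon-induced genes (olive) and the 9 interferon response genes (purple). Library 4 holds 15.9%, 53.1% and 77.8% of them.

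Among the GTPases that interferon gamma induces, library 4 was the highest for Igtp but not for Gbp4 and Gbp9. Gbp9 had 279, 234 and 380 normalized counts in control and 626, 805 and 632 in Bmal1;CKO, and Igtp had 1142, 1951 and 2729 in control and 4911, 3044 and 3261 in Bmal1;CKO. For both, all Bmal1;CKO libraries exceeded all control libraries, and limma-trend gave an adjusted p of 0.883 for each. Gbp4 was nearly absent from control, with 2, 1 and 0 reads, and had 25.3, 259 and 88.1 normalized counts in Bmal1;CKO libraries 4, 5 and 6. It had an adjusted p of 0.848 in limma-trend and of 0.00887 in DESeq2, the single case among the named genes of a call by any tool. Irgm2, in contrast, had 805, 852 and 879 in control and 471, 428 and 737 in Bmal1;CKO. In the GENCODE annotation Gbp4 and Gbp9 overlap each other on the same strand, as do Igtp and Irgm2, so the split of reads between them is uncertain.

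Summed microglial markers moved with part of the pattern. The summed level of the 10 microglial markers was 1457307 to 4313189 normalized counts in the control libraries and 2111903 to 4207927 in the Bmal1;CKO libraries. This sum was highest in libraries 1 and 4, the libraries in which Isg15, Ifitm3 and Bst2 were also highest. The microglial gene C1qb alone gave 1855096 of the sum in library 1. The median of the 10 markers was 125649, 55934 and 90436 in control libraries 1, 2 and 3. In Bmal1;CKO libraries 4, 5 and 6 this median was 138431, 115868 and 108299, and 2 of the 10 markers were highest in library 4. The summed endothelial markers were 193601 to 405130 in control and 119149 to 248266 in Bmal1;CKO. Their median was 11067, 9898 and 9797 in control libraries 1, 2 and 3 and 6318, 4723 and 10717 in Bmal1;CKO libraries 4, 5 and 6. Of the 13 endothelial markers 12 were below 0 in limma-trend and 1 above, with a median log2 fold change of -0.52. Of the 10 microglial markers 9 were above 0 and 1 below, with a median of 0.41. In summed counts, library 4 held 1.99 times the median of the other 5 libraries in microglial markers and 0.978 times in endothelial markers. In the sum of the 9 genes it held 3.17 times that median. The same ratio was 5.05 for erythroid, 4.99 for lymphocyte, 2.08 for perivascular macrophage and 1.64 for monocyte and neutrophil markers, 1.25 for Muller glia, 1.18 for pericytes and 0.529 for rods. Of these lists, lymphocyte and macrophage markers summed to no more than 53.4 and 868 normalized counts in any library, and erythroid markers were highest in control library 3. In control library 1 the summed microglial markers were as high as in library 4, whereas Irf7, Ifit1, Ifit2 and Oasl2 were at their lowest. The median lymphocyte marker ranged between 0 and 4.22 normalized counts, and the B-cell marker Ms4a1 was at 0 throughout. Macrophage and monocyte lists also had low medians, of 0 to 48.4 and 0.615 to 45.7 normalized counts. The part of microglial RNA, or of any of these other cell types, in the levels of the 9 genes was not tested.

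**Figure D5:**
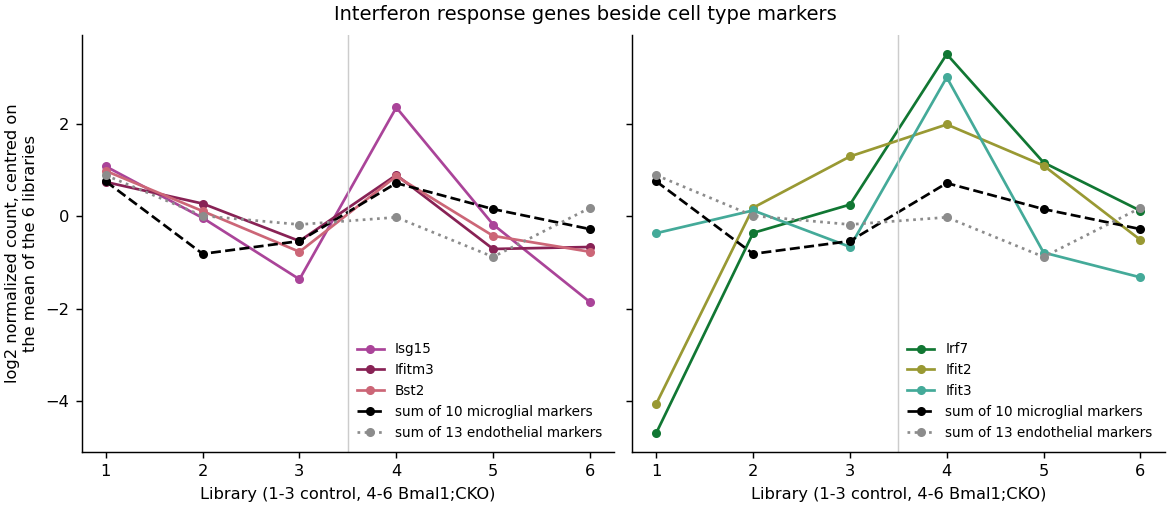
Log2 normalized counts, centred on the mean of the 6 libraries (y axis), by library (x axis) for Isg15, Ifitm3 and Bst2 (left) and Irf7, Ifit2 and Ifit3 (right), with the summed microglial markers (dashed) and the summed endothelial markers (dotted) in both panels. Libraries 1 and 4 are high in the left panel for the genes and the microglial markers, and in the right panel Irf7 and Ifit2 are lowest in library 1.

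The mean centred profile of the 9 genes on the log2 scale was -2.15, 0.32 and -0.10 in control libraries 1, 2 and 3 and 2.05, 0.33 and -0.44 in Bmal1;CKO libraries 4, 5 and 6. Ifit2 was the closest to it, with a root mean square difference of 0.99, and Oasl2 the farthest at 2.21, while the median of all genes tested was 1.42. Ifit1 at 1.74, Isg15 at 1.55 and Bst2 at 1.44 also lay farther from it than that median, although each gene entered the mean. Outside the lists, the genes of smallest difference over the 6 libraries were Gm5148 at 0.33, Gm50341 at 0.37, Abhd12b at 0.40, Gm41071 at 0.41 and A130051J06Rik at 0.42. Each of these had fewer than 400 normalized counts in every library.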

How the data were processed

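RNA from sorted P7.5 retinal endothelial cells was amplified (Smart v4 kit) before sequencing as paired ends in 3 control and 3 Bmal1;CKO libraries. As the authors describe, reads were checked with FastQC, trimmed with Trimmomatic, aligned to mm10 with Bowtie, counted per gene with featureCounts and compared with DESeq2; versions are not given in the sources used here. The deposited table holds a signal that is never negative, the read counts of each gene divided by a DESeq2 size factor of its library (0.711 to 1.40). Whole reads were recovered for 100% of values within 0.05 of a whole number. The deposited columns of the authors' own comparison (log2 fold change, score and p-value) were not used.

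Column numbers could not be matched to single samples, so columns served as replicates of their genotype. The main test was limma-trend (limma 3.58.1, R 4.3.3) on log2(normalized count + 1), with Benjamini-Hochberg adjustment over 20459 genes (10 reads or more in 3 or more libraries) and no covariate. The added 1 pulls the fold change of genes with few reads towards 0 on this scale, while the mean of logarithms gives a single low library more weight than count models do. Alternatives were edgeR 4.0.16 (the quasi-likelihood test with TMM or the size factors), DESeq2 1.42.0, limma-voom, pseudocounts of 0.5 and 10, other filters, scaling on endothelial or microglial markers, and leaving out each library. The steps were tested on simulated data that had the same dispersion for every gene and no outlying library. That test does not show how the steps behave where single libraries stand apart, as they do here. All 9 genes, the leading genes of each pathway list by unadjusted p (up to 3), close paralogs, pathway core genes, markers and the 5 nearest profiles were the genes to be named. Irgm2 and Ikbke, which fall outside this rule, were named after their values were seen. The 9 genes and all lists were chosen with earlier results of these data known. Gene positions are those of the deposited table on GRCm38, written from 1, and exon lengths are from GENCODE. Counting error is large where reads are few, as for Ifit1 in control library 1.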

Additional observations from a re-analysis of the deposited data

How the results depend on the processing

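The number of genes past a false discovery rate of 0.05 was 0 in limma-trend (1007 at an unadjusted p under 0.05), 0 in edgeR and limma-voom, 67 in DESeq2, and 1 each with genes of at least 1 read in total, with genes of at least 10 reads in every library, and under endothelial or microglial marker scaling. It ranged from 0 to 6 when single libraries were left out. The count at an unadjusted p under 0.05 was 1673 under endothelial marker scaling and 318 to 2332 with single libraries left out. For the 9 genes this count was 0, and it was 1 in edgeR with the size factors, in DESeq2, with a pseudocount of 10 and with either other filter, 2 under endothelial marker scaling, and 0 to 1 with single libraries left out. For the pathway lists it was 7, and it became 17 under endothelial and 2 under microglial marker scaling, and 1 to 16 with single libraries left out. The median log2 fold change of the 9 genes was 0.60, with a range of 0.13 to 1.41 over the alternatives. When a library was left out, 0 to 3 of the 9 genes had groups that did not overlap. The count was 3 without Bmal1;CKO library 4, where 17.6% of all genes did not overlap (16.9% to 30.7% over the libraries left out). Of these 3, Ifit3 and Ifitm3 were lower in the remaining Bmal1;CKO libraries than in all control libraries, and Stat2 was higher. Endothelial and microglial marker scaling moved the median of all genes from 0.11 to 0.68 and -0.36.

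Of 719 alternative estimates for 46 single genes, 42 turned in sign, 21 of them with a library left out, and 1 passed the threshold. Under microglial marker scaling the log2 fold change turned to -0.26 for Isg15, -0.27 for Stat2, -0.12 for Ifngr1, -0.35 for Ifngr2, -0.41 for Il10rb, -0.14 for Irf3, -0.15 for Pias1 and -0.076 for C1qb. Under endothelial marker scaling it turned to 0.26 for Ifitm3, 0.37 for Bst2, 0.26 for Ifitm1, 0.51 for Ifnar1, 0.58 for Ifnar2, 0.15 for Cldn5, 0.024 for Pecam1 and 0.40 for Arntl. Ifit3b turned to 0.26, 0.29 and 0.29 in edgeR with TMM, edgeR with the size factors and DESeq2, Ifitm1 to 0.064 with a pseudocount of 0.5, and Ifnar2 to 0.0073 in limma-voom. With single libraries left out, the log2 fold change ranged across 0, from -0.75 to 1.41 for Ifit3, -0.91 to 1.19 for Isg15, -0.70 to 0.22 for Bst2, -0.16 to 0.32 for Il10rb, -0.10 to 1.18 for Ube2l6, -0.28 to 1.66 for Usp18, -2.14 to 0.37 for Ifit3b, -2.08 to 1.30 for Ifitm1, -0.10 to 4.87 for Oasl1, -0.30 to 0.24 for Ifnar1, -0.27 to 0.39 for Ifnar2 and -0.49 to 0.029 for Arntl. The cause was not tested. No paired analysis was possible because the columns of the table carry no replicate numbers that match those of the labels.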
